A study of Mus musculus with 3 samples.

Results

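The genes described here encode the 2 plasminogen activators (Plau and Plat), the urokinase receptor (Plaur), a serpin that inhibits both activators and thrombin (Serpine2) and tissue factor (F3). They were chosen by name, as 5 protein-coding genes of the 56748 genes in the count table. Expression was measured by RNA sequencing in fibroblasts of visceral fat from wild-type mice fed a high-fat diet. All 3 cultures came from stromal vascular cells that had passed a magnetic sort against CD45, CD31 and Ter119, the surface markers of leukocytes, endothelial cells and erythroid cells. The Osm culture received recombinant mouse oncostatin M, a cytokine of the interleukin 6 family, at 3 ng/mL for 24 h. The TGFβ1 culture received recombinant human transforming growth factor beta 1 at 3 ng/mL for 24 h, and the vehicle culture (Veh) received neither ligand, with no time given. Neither the age of the mice nor their number, nor whether cells of several mice were pooled, is given in the sources used here.

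Plasminogen is a circulating zymogen that urokinase (the product of Plau) and tissue plasminogen activator (the product of Plat) cut into plasmin, the protease that dissolves fibrin and helps turn over matrix. The urokinase receptor holds urokinase at the cell surface, and serpins such as protease nexin 1, the product of Serpine2, inactivate the activators and thrombin. Tissue factor is the membrane protein that binds coagulation factor VII and starts clotting, and fibroblasts around vessels are a well known source of it.

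There was 1 library per condition, so the spread between cultures is unknown, no p-value is given, and no difference below has a replicate check. The Osm, TGFβ1 and vehicle libraries held 17319872, 18533741 and 18336068 counted reads. Counts were scaled to library size (CPM), and a gene was called higher or lower where its scaled counts differed at least 2-fold between libraries and the counting interval around the ratio left out 1. Intervals are at 95%, exact except for ratios of ratios, and cover counting error only. The words rose and fell are used only of genes that passed this rule. In all, 13712 genes reached 1 CPM in at least 1 library and were compared, all 5 genes of the system among them. Fibroblast markers were abundant, with a summed level over 8 of 8 genes of 19852, 22514 and 19607 CPM in the Osm, TGFβ1 and vehicle libraries. With Osm, 7 of the 8 were below vehicle (median log2 ratio -0.06, beside 0.002 over all genes compared), and none was called. With TGFβ1, 6 of the 8 were below vehicle (median log2 ratio -0.20, beside 0.01 over all genes). Among them were Dcn (2.41-fold lower, past the 2-fold rule) and Pdgfra (1.62-fold lower), while Col1a1 and Col1a2 were above vehicle. The part of these marker differences in the differences of the 5 genes was not tested. The 9 leukocyte markers used summed to between 14.9 and 18.8 CPM, with Itgam and Cd3e at 0 counts in every library. The 6 endothelial markers summed to between 35.8 and 50.1 CPM, nearly all of it from Tek, with Tie1 and Cldn5 at 0 in every library. The 6 erythroid markers were at 0 throughout, and the 6 adipocyte markers summed to between 0.380 and 2.48 CPM.

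With TGFβ1, 3 of the 5 genes fell: Plau 4.61-fold, Serpine2 2.47-fold and F3 2.21-fold. Over all genes compared, 4.79% were called lower by the same rule and 2.27% higher. Plat lay at the threshold, 1.96-fold lower, and Plaur, the receptor, was 1.48-fold higher. With Osm none of the 5 was called, where 1.6% of all genes were called in either direction, and all 5 lay within 1.12-fold of vehicle.

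Plau (ENSMUSG00000021822, chromosome 14, 20886728 to 20893453, plus strand, build mm39) had 6677 reads in the Osm library, 1719 in the TGFβ1 library and 7906 in the vehicle library. In the authors' deposited FPKM values, which divide reads by gene length and library size, these were levels of 162 FPKM with Osm, 39.5 FPKM with TGFβ1 and 182 FPKM with vehicle. The TGFβ1 library stood well below the other two, whose counting intervals of 158 to 166 FPKM with Osm and 178 to 186 FPKM with vehicle did not meet. The ratio of scaled counts, TGFβ1 over vehicle, was 4.61-fold lower (95% counting interval 4.37 to 4.86), a log2 ratio of -2.20. It was the 95th lowest of the 13712 genes. Osm over vehicle was 1.12-fold lower (1.08 to 1.15), short of both the 2-fold rule and a milder rule of 1.2-fold, which 9.58% of all genes passed in either direction and none of the 5.

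Plat (ENSMUSG00000031538, chromosome 8, 23247743 to 23272860, plus strand) encodes the other activator. It had 3305 reads with Osm, 1761 with TGFβ1 and 3445 with vehicle, or 30.4, 15.3 and 30.0 FPKM. The Osm and vehicle levels overlapped within counting error and the TGFβ1 level lay below both. TGFβ1 over vehicle was 1.96-fold lower (1.85 to 2.08), so that the interval spans the 2-fold threshold on either side. By the rule of 1.2-fold, under which 17.7% of all genes were lower with TGFβ1, Plat was called lower. Osm over vehicle was 1.02-fold higher (0.970 to 1.07).

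Plaur (ENSMUSG00000046223, chromosome 7, 24161909 to 24175393, plus strand) was the least abundant of the 5, with 408 reads with Osm, 708 with TGFβ1 and 476 with vehicle. Its levels were 8.95 FPKM with Osm, 14.7 FPKM with TGFβ1 and 9.89 FPKM with vehicle. Only here among the 5 was the TGFβ1 level the highest of the 3 libraries, with a counting interval (13.6 to 15.8 FPKM) above those of both others. TGFβ1 over vehicle was 1.48-fold higher (1.32 to 1.67), which passed the rule of 1.2-fold, met by 18.0% of all genes in that direction. Osm over vehicle was 1.10-fold lower, with an interval (0.962 to 1.26) that spans 1.

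Serpine2 (ENSMUSG00000026249, chromosome 1, 79771914 to 79838897, minus strand) had 12294 reads with Osm, 5173 with TGFβ1 and 12746 with vehicle, the highest read numbers of the 5 genes. Per length its levels were 85.2, 33.9 and 83.6 FPKM with Osm, TGFβ1 and vehicle. The Osm and vehicle levels overlapped within counting error, and the TGFβ1 level was lower than both. TGFβ1 over vehicle was 2.47-fold lower (2.39 to 2.55), the 395th lowest ratio of the 13712. Osm over vehicle was 1.02-fold higher (0.998 to 1.05).

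F3 (ENSMUSG00000028128, chromosome 3, 121517186 to 121528697, plus strand) had 7278 reads with Osm, 3747 with TGFβ1 and 8275 with vehicle. Its levels were 165 FPKM with Osm, 80.6 FPKM with TGFβ1 and 178 FPKM with vehicle. Per annotated length, tissue factor thus stood beside urokinase as the highest of these transcripts with Osm and with vehicle, and above it with TGFβ1. The 3 counting intervals were apart from each other. TGFβ1 over vehicle was 2.21-fold lower (2.13 to 2.30), the 536th lowest ratio, and Osm over vehicle 1.07-fold lower (1.04 to 1.11). No other annotated gene overlaps any of the 5 genes in the deposited coordinates. At most 0.207% of the 50-base windows sampled in their transcripts occur in a transcript of another gene, a value reached by Serpine2, while the other 4 genes shared none.

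**Figure D1:**
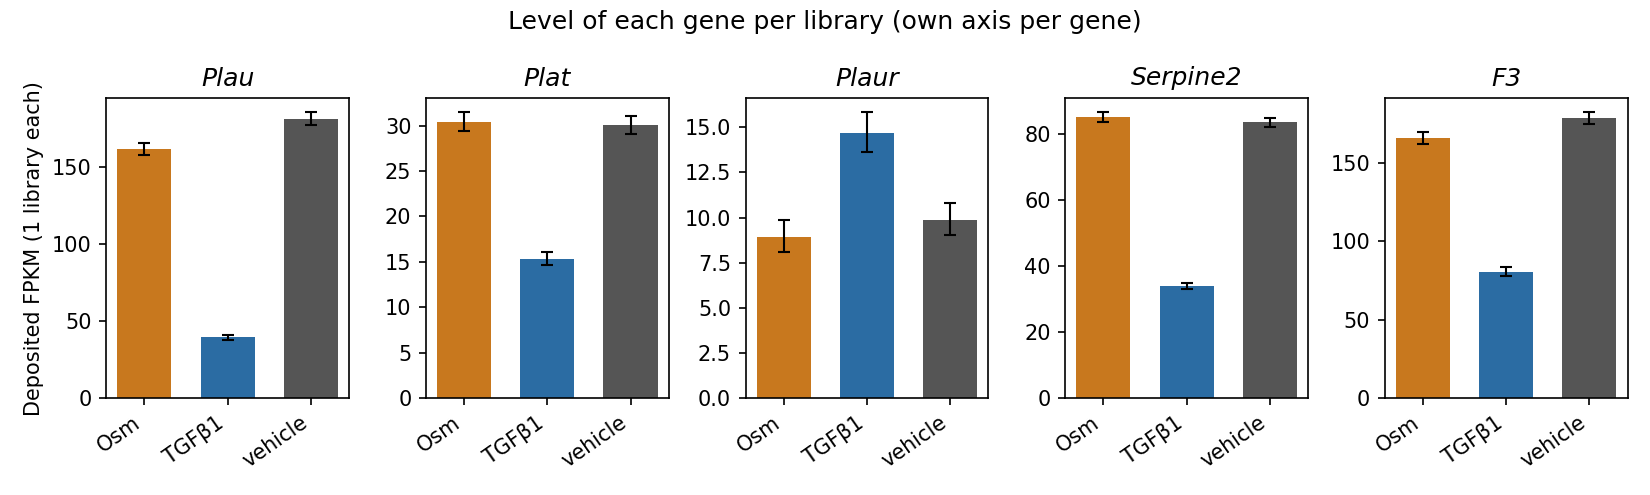
Deposited FPKM (y axis, from 0, separate for each gene) of Plau, Plat, Plaur, Serpine2 and F3 in the Osm, TGFβ1 and vehicle libraries (x axis), 1 library each, with bars for the level and whiskers for the 95% counting interval. Plau, Plat, Serpine2 and F3 are lowest with TGFβ1, at 39.5, 15.3, 33.9 and 80.6 FPKM, while Plaur is highest there at 14.7 FPKM.

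The Osm and TGFβ1 libraries were also compared directly, and this ratio shares its libraries with both ratios over vehicle. Plau was 4.13-fold higher with Osm than with TGFβ1 (3.91 to 4.35), Serpine2 2.52-fold higher (2.44 to 2.61) and F3 2.06-fold higher (1.98 to 2.15), and these 3 passed the 2-fold rule, which 5.07% of all genes passed in that direction. Plat was 1.99-fold higher (1.88 to 2.11), just short of that rule but past the rule of 1.2-fold, as were 18.5% of all genes. Plaur was 1.63-fold lower with Osm (1.44 to 1.85), past the rule of 1.2-fold with 17.4% of all genes.

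**Figure D2:**
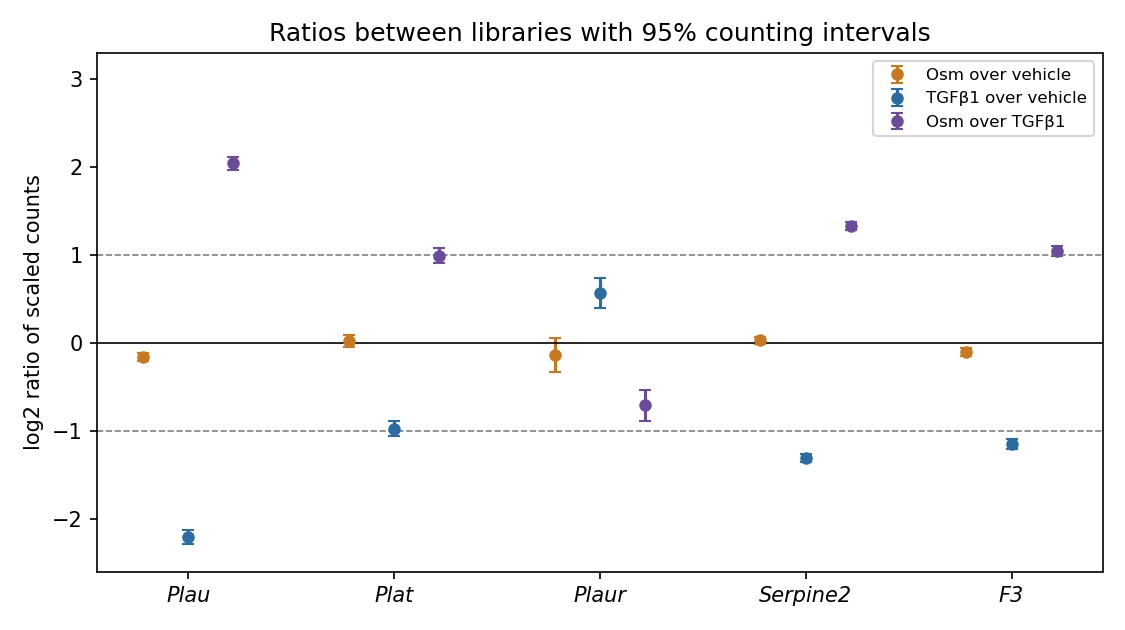
log2 ratio of scaled counts (y axis) for each of the 5 genes (x axis), with points for Osm over vehicle, TGFβ1 over vehicle and Osm over TGFβ1, whiskers for the 95% counting interval and dashed lines at the 2-fold threshold. The ratios of TGFβ1 over vehicle run between -2.20 for Plau and 0.57 for Plaur, whereas those of Osm over vehicle stay between -0.16 and 0.03.

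Set against all genes, the 5 ratios of Osm over vehicle lay in the body of the distribution, with 18.1% of all genes lower than Plau and 57.9% lower than Serpine2. The median log2 ratio of the 5 genes was -0.10 for Osm over vehicle, beside 0.002 over all genes compared, and -1.15 for TGFβ1 over vehicle, beside 0.01. For TGFβ1 over vehicle, Plat had the 721st lowest ratio and Plaur the 1031st highest. With 5 genes chosen by name, these medians describe the genes and do not test them.

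**Figure D3:**
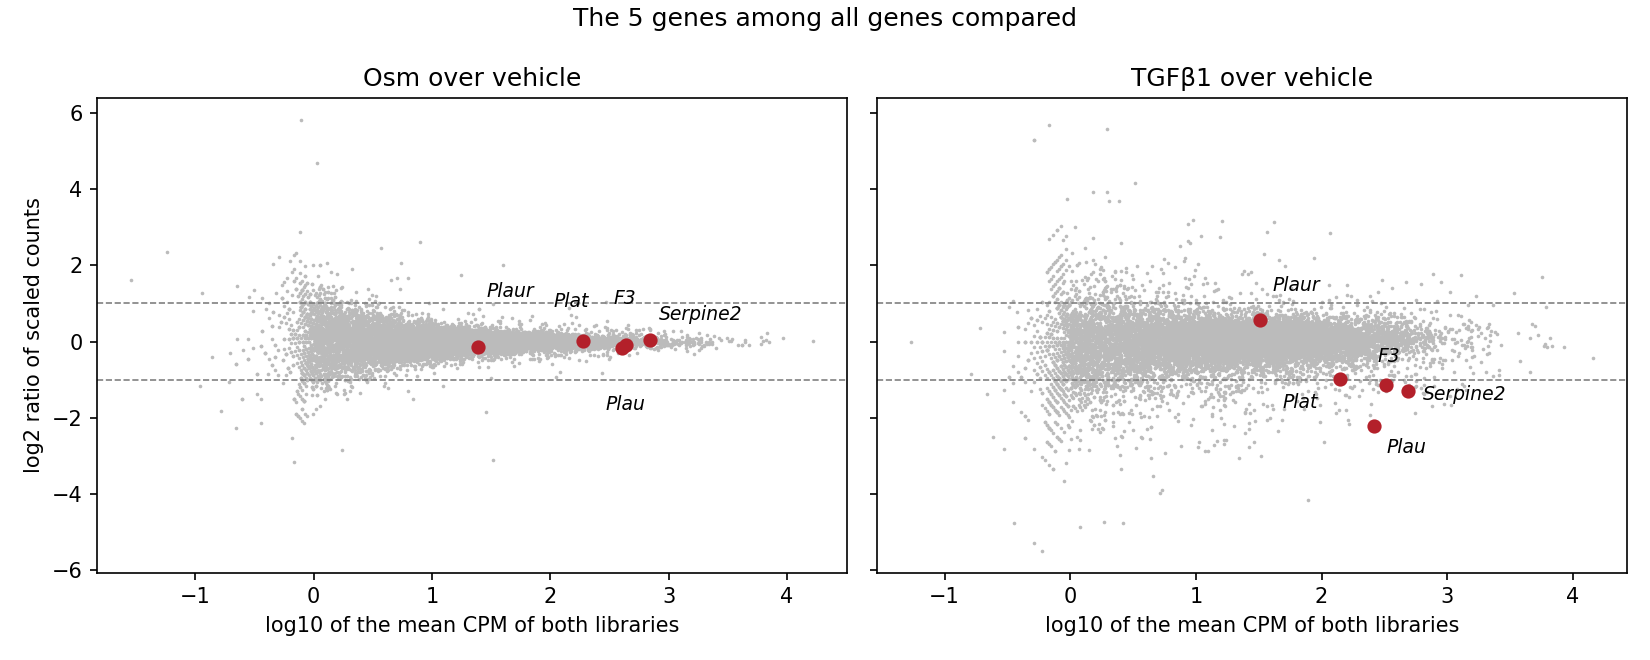
log2 ratio of scaled counts (y axis) against the log10 of the mean CPM of the 2 libraries compared (x axis) for all 13712 genes (grey) and the 5 genes (red), with dashed lines at the 2-fold threshold, for Osm over vehicle on the left and TGFβ1 over vehicle on the right. With TGFβ1, Plau, Serpine2 and F3 lie below the lower line and Plat beside it, while with Osm all 5 lie near 0.

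The order of the levels per length also differed between libraries. It rests on the annotated gene lengths, 8287 bases for Serpine2, 6241 for Plat, 2617 for Plaur, 2527 for F3 and 2367 for Plau. The counting intervals do not cover an error in these lengths, and by reads Serpine2 came first in every library. With Osm, F3 and Plau came first, at 165 and 162 FPKM, and their counting intervals overlapped. With TGFβ1, F3 led alone at 80.6 FPKM, followed by Plau at 39.5 FPKM and Serpine2 at 33.9 FPKM, and Plat and Plaur, at 15.3 and 14.7 FPKM, could not be told apart within counting error. With vehicle, Plau and F3, at 182 and 178 FPKM, overlapped within counting error, and Serpine2, Plat and Plaur followed at 83.6, 30.0 and 9.89 FPKM. Summed over Plau and Plat, the activators stood at 192 FPKM with Osm, 54.8 FPKM with TGFβ1 and 212 FPKM with vehicle.

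Ratios of 2 genes within a library do not depend on how the libraries are scaled to each other. They do depend on the 2 annotated lengths, which cancel where such a ratio is compared between libraries. Plau transcripts per length were 5.33 times those of Plat with Osm, 2.57 times with TGFβ1 and 6.05 times with vehicle. Between the TGFβ1 and vehicle libraries that ratio differed by a factor of 0.425 (0.394 to 0.460, from the counting variance of the 4 counts). In the TGFβ1 library the Plau transcript thus stood further below vehicle than that of Plat, with the spread between cultures unknown. Plau stood at 1.90 times its inhibitor Serpine2 with Osm, 1.16 times with TGFβ1 and 2.17 times with vehicle, and the ratio of TGFβ1 over vehicle was 0.536 (0.504 to 0.570). Plat ran the other way against Serpine2, at 0.357 times with Osm, 0.452 times with TGFβ1 and 0.359 times with vehicle. The widest contrast was between urokinase and its receptor: Plau was 18.1 times Plaur with Osm, 2.68 times with TGFβ1 and 18.4 times with vehicle. These are ratios of transcripts, and protein or protease activity was not measured.

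RefSeq start sites on build GRCm38.p6, a different build from that of the count table, were at hand for 3 of the 5 genes, while Plau and Plat had no entry. The 250 bases before the start site are shown for Serpine2 and F3, which fell with TGFβ1, and for Plaur, which was higher, to let the genes with opposite differences be read side by side. The windows are chr1:79858666-79858915 on the minus strand for Serpine2, chr3:121723287-121723536 on the plus strand for F3 and chr7:24462233-24462482 on the plus strand for Plaur. All are written 5′ to 3′ along the gene, with capitals for matches to 2 of the 6 motifs searched on both strands, the AP-1 site TGANTCA and the GC box GGGCGG, whose matches touch or overlap where the capitals run on.
Serpine2: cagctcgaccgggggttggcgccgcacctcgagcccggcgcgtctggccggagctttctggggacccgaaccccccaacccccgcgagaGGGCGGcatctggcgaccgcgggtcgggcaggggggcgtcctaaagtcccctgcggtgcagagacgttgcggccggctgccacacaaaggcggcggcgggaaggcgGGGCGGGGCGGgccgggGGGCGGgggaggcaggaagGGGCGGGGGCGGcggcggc
F3: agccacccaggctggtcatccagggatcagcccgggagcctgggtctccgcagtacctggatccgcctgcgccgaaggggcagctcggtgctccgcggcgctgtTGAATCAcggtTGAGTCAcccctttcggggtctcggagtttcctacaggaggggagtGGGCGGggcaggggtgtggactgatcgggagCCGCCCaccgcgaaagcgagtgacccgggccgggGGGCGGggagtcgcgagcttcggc
Plaur: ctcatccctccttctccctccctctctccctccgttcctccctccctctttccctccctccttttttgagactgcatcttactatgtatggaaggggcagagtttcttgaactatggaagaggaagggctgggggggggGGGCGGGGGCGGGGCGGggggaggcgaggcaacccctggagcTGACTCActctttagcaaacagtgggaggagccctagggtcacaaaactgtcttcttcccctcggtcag
The F3 window held 2 AP-1 matches, TGAATCA and TGAGTCA, whose first bases lie 146 and 135 bases before the start, and 3 GC boxes. The Plaur window held 1 AP-1 match, TGACTCA, at 69 bases before the start, and 3 GC boxes. The Serpine2 window held 6 GC boxes and no AP-1 match. Of all 32851 promoter windows of this length, 6.75% held an AP-1 match and 32.7% a GC box. The palindromic Smad site GTCTAGAC, the CAGA-type Smad site CAGACA, the Stat-type site TTCNNNGAA and the TATA box TATAAA, held by 0.167%, 17.1%, 7.02% and 12.4% of windows, had no match in the 3 windows. The windows were rich in G and C, at 78.8% for Serpine2, 70.0% for F3 and 59.6% for Plaur, beside a median of 52.4% over all windows. F3 and Plaur, with opposite differences under TGFβ1, thus both carried AP-1 letters, and a match of letters is not evidence of binding.

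Genes around the 5 were taken from 5 lists of 77 genes in all, of which 48 reached 1 CPM. With Osm, none of the 48 was called higher and 1 lower, and with TGFβ1, 7 were called higher and 9 lower. Over all genes compared, 1.6% were called with Osm in either direction, and with TGFβ1 2.27% were called higher and 4.79% lower. The same shares stand beside the counts per list below. The median log2 ratio of the 48 was 0.01 for Osm over vehicle and 0.08 for TGFβ1 over vehicle. Per list, in the order given here, the medians with TGFβ1 were -0.51, 0.21, 0.25, -0.12 and -0.51, beside 0.01 over all genes. Plasminogen itself (Plg) had 0 reads in every library. With 3 counts taken as the limit, this allows a level of up to 0.173 CPM with Osm and 0.163 CPM with TGFβ1 and with vehicle. Of the other serpins and brakes, 5 of 13 were measured, and 2 fell with TGFβ1. Serping1, the inhibitor of complement C1 that also inhibits plasmin, was at 991 CPM with Osm, 361 CPM with TGFβ1 and 919.8 CPM with vehicle. Serpinb8, an intracellular serpin, was 3.07-fold lower with TGFβ1 (2.35 to 4.07), at 3.91 CPM. Serpinb6a, another intracellular serpin, was at 476, 483 and 489.9 CPM, but shares 23.6% of its windows with other genes and overlaps Ripk1 and Nqo2, so its value is uncertain.

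The list for binding and clearance of plasminogen and its activators at the cell surface had 13 of 14 members measured. With TGFβ1, 1 of them rose and 1 fell. The large endocytic receptor Lrp1, which clears complexes of activators with serpins, was at 9460 CPM with Osm, 8105 CPM with TGFβ1 and 8937 CPM with vehicle, and was called in neither comparison with vehicle. The disulfide isomerase gene Pdia3 was at 963 CPM with Osm, 1227 CPM with TGFβ1 and 969.7 CPM with vehicle. Lrp2, a relative of Lrp1, was at 1.27 CPM with Osm, 13.3 CPM with TGFβ1 and 2.88 CPM with vehicle. Lrp2 was 2.27-fold lower with Osm (1.36 to 3.92), the 1 gene of the 5 lists called in that comparison, on 22 and 53 reads, a call lost where FPKM with 0.1 added replaced the counts. It was 4.63-fold higher with TGFβ1 (3.43 to 6.36). The gene that fell was Vtn (vitronectin), named after its value was seen. Vtn was at 1.44 CPM with Osm, 0.705 CPM with TGFβ1 and 1.74 CPM with vehicle. That was 2.47-fold lower with TGFβ1 than with vehicle (1.26 to 5.12), on 13 and 32 reads. Of the partners of the urokinase receptor, 8 of 10 were measured. The integrin chain gene Itga3 alone passed the 2-fold rule among them with TGFβ1, at 2.01-fold higher (1.56 to 2.59), with 5.42, 10.5 and 5.22 CPM with Osm, TGFβ1 and vehicle. Itgb1, the common integrin beta chain, was 1.37-fold higher with TGFβ1 (1.35 to 1.39), and the receptor gene Pdgfrb was 1.07-fold lower (1.05 to 1.08).

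In the tissue factor and thrombin list, 13 of 26 members were measured, and with TGFβ1 2 rose and 5 fell. Of the 2 that rose, F2rl3 reached 1 CPM only with TGFβ1, so the filter on low values let it in only as a higher gene. F7, which encodes the factor VII that tissue factor binds, was at 48.3 CPM with Osm, 10.6 CPM with TGFβ1 and 38.9 CPM with vehicle, 3.65-fold lower with TGFβ1 (3.12 to 4.30). Thbd, the thrombin-binding anticoagulant thrombomodulin, was at 362 CPM with Osm, 123 CPM with TGFβ1 and 295 CPM with vehicle, 2.40-fold lower with TGFβ1 (2.28 to 2.52). The anticoagulant cofactor gene Pros1, at 769.9, 302 and 627 CPM with Osm, TGFβ1 and vehicle, was 2.08-fold lower with TGFβ1 (2.01 to 2.14). Its relative Gas6 was 2.06-fold lower (1.96 to 2.16), and Vwf, the von Willebrand factor gene of endothelial cells, 3.94-fold lower (2.60 to 6.14) at only 1.57 CPM with TGFβ1 and 6.20 CPM with vehicle. The protease-activated receptor gene F2rl1 was at 10.5 CPM with Osm, 36.0 CPM with TGFβ1 and 10.6 CPM with vehicle, 3.40-fold higher with TGFβ1 (2.89 to 4.01). F2r, the main thrombin receptor gene, was 1.39-fold higher with TGFβ1 (1.34 to 1.43), short of the rule. Tfpi, the inhibitor of the complex of tissue factor and factor VII, was at 97.8, 84.0 and 91.6 CPM with Osm, TGFβ1 and vehicle. Prothrombin (F2) and the fibrinogen genes Fga, Fgb and Fgg had 0 reads in every library.

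Among growth factors and proteases that urokinase or plasmin is known to process, 9 of 14 members were measured, and with TGFβ1 3 rose and 1 fell. Of the 3, Mmp10 reached 1 CPM only with TGFβ1 and so entered only as a higher gene. Mmp3, a stromelysin that plasmin activates, was at 1390.5 CPM with Osm, 354 CPM with TGFβ1 and 1149 CPM with vehicle, 3.25-fold lower with TGFβ1 (3.16 to 3.34). Pdgfc, whose latent product is activated by tissue plasminogen activator, was at 4.21 CPM with Osm, 19.0 CPM with TGFβ1 and 2.77 CPM with vehicle, 6.85-fold higher with TGFβ1 (5.10 to 9.38). Mmp2, a gelatinase, was 1.76-fold lower with TGFβ1 (1.73 to 1.79), short of the rule, as was the membrane-bound Mmp14, at 1098 CPM with Osm, 721 CPM with TGFβ1 and 1084 CPM with vehicle. Gm45472 overlaps Mmp2 on the opposite strand and was itself at 37.4, 10.9 and 27.6 CPM with Osm, TGFβ1 and vehicle. A long noncoding RNA gene overlaps Mmp14 on the same strand and had 415, 253 and 403 reads. Mmp3 shares 9.09% of its windows with other genes.

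**Figure D4:**
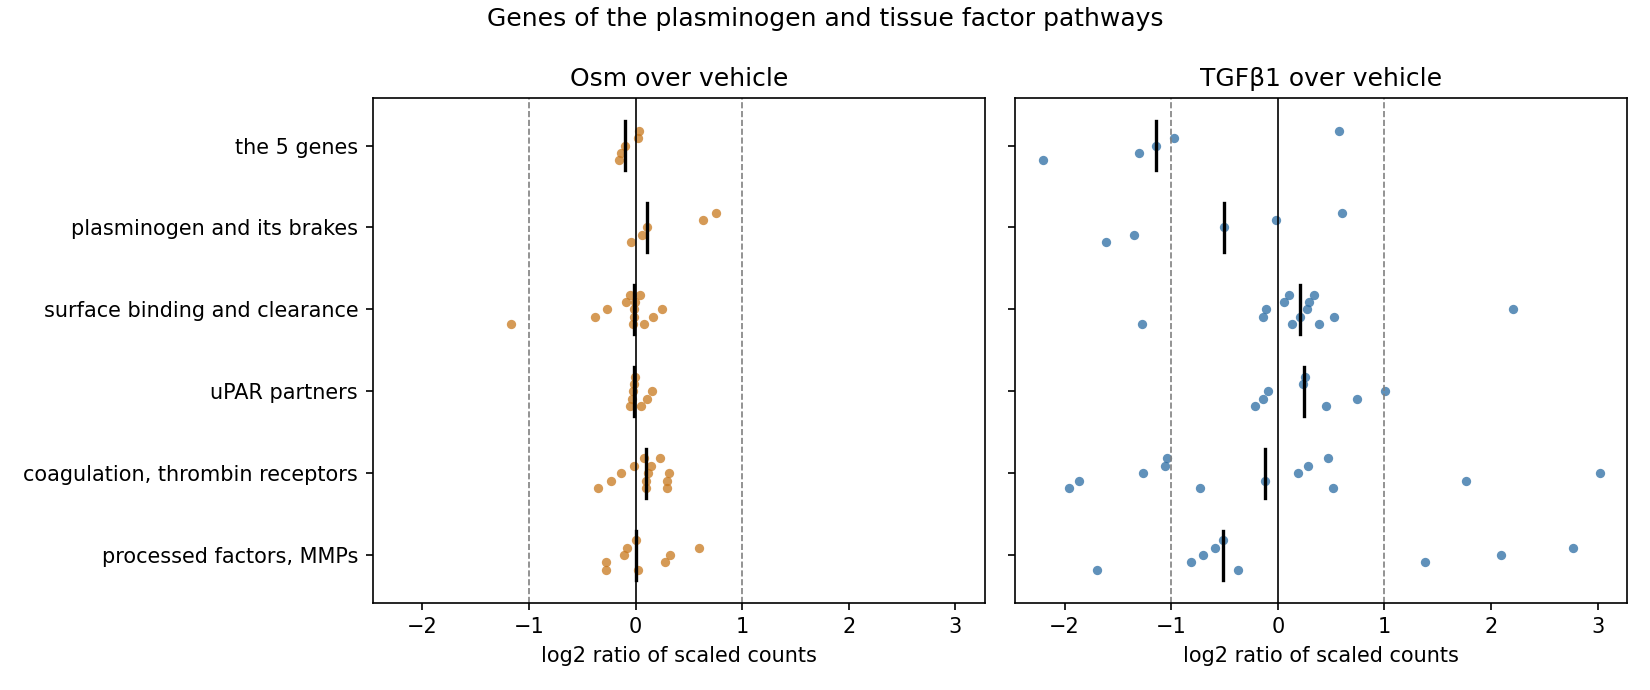
log2 ratio of scaled counts (x axis, the same in both panels) of each measured gene (points) in the 5 genes and in the 5 surrounding lists (rows), for Osm over vehicle on the left and TGFβ1 over vehicle on the right, with a black bar at each list's median and dashed lines at the 2-fold threshold. With TGFβ1 the medians run from -1.15 for the 5 genes to 0.25 for the partners of the urokinase receptor.

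Over 9115 protein-coding genes at 10 CPM or more in at least 1 library, the 2 genes nearest to each of the 5 were found by the distance between their pairs of log2 ratios, Osm over vehicle and TGFβ1 over vehicle, from the same 3 libraries. Serpine2 lay nearest to Sfrp1, a secreted Wnt modulator (distance 0.0142), and to Ecel1 (0.0299). F3 lay nearest to the scavenger receptor gene Colec12 (0.0344) and the collagen chain gene Col6a3 (0.040). Plat lay nearest to Fam13c (0.043), which shares 15.8% of its windows with other genes and is uncertain, and to Cyb5a (0.045), and Plaur to Zbtb18 (0.0126) and Cbwd1 (0.0225). Plau had the most distant neighbours of the 5, the apolipoprotein gene Apoe (0.111) and Selenbp1 (0.134). Of these, Selenbp1 shares 49.6% of its windows with other genes and is uncertain. A nearest gene exists for any gene, and the distances take no account of counting error. For Plaur the counting interval of the log2 ratio of TGFβ1 over vehicle ran from 0.40 to 0.74, so the order of near neighbours is uncertain.

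In sum, markers of other cells that the sort did not target were low beside the fibroblast markers. Wt1 was at 36.1, 43.4 and 37.1 CPM with Osm, TGFβ1 and vehicle. Plaur was at 23.5, 38.4 and 25.9 CPM, so Wt1 had more reads in every library. Per length, however, Wt1 stood below Plaur in every library, at 5.81, 7.02 and 5.99 FPKM against 8.95, 14.7 and 9.89 FPKM. The 8 mesothelial markers summed to 41.5, 51.6 and 43.5 CPM with Osm, TGFβ1 and vehicle, most of it from Wt1, with 5, 11 and 10 reads for the defining marker Msln. The 7 mural cell markers summed to 38.6, 95.1 and 37.9 CPM. Cspg4 among them was at 7.38, 74.9 and 8.53 CPM, 8.77-fold higher with TGFβ1 than with vehicle (7.43 to 10.4). Without Cspg4 the other 6 mural genes summed to 31.2, 20.2 and 29.4 CPM, and the pericyte marker Rgs5 had 3, 3 and 6 reads. The part of these differences in the levels of the 5 genes was not tested, and in bulk RNA fewer cells of a type and less RNA per cell cannot be told apart.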

How the data were processed

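RNA sequencing counts of 3 libraries, 1 each for Osm, TGFβ1 and vehicle, were grouped by their treatment labels. The authors deposited raw read counts (whole numbers) by Ensembl gene, and FPKM values. Build mm39 and the tools HISAT2, HISAT, TopHat2 and CASAVA appear in the submitters' processing notes. Which counter, annotation release and strand setting were used is not stated there. Per the labels' protocols, RNA was selected by poly-T beads. The deposited FPKM values equal the counts over gene length and over a library size that matched the DESeq2 size factor times the geometric mean of the totals in genes above 100 counts, so FPKM depends on the annotated length.

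Counts were scaled with TMM factors (1.002, 0.995 and 1.004 for Osm, TGFβ1 and vehicle; edgeR 4.0.16, R 4.3.3). Log2 ratios used a prior count of 0.5, folds none. Intervals are exact conditional binomial (Clopper-Pearson) ones for ratios and exact Poisson ones for levels, at 95%. For a ratio of ratios between libraries, the interval was a normal approximation on the log scale. All these intervals cover counting error only, since there was 1 library per condition. Reads carry no molecular identifiers, so reads and not molecules were counted. For a count of 0, 3 counts were taken as the upper limit of the level, and no count was replaced. Other steps used scipy 1.17.1, numpy 2.4.6, matplotlib 3.10.9 and pandas 2.3.3 in Python 3.11.15. Alternative size factors came from DESeq2 1.42.0. The calling step was tested on simulated data.

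Named genes were the 5 genes, every list gene called over vehicle with at least 5 CPM, the 2 most abundant genes of each list and the 2 nearest in pattern to each of the 5. Tfpi, F2, Plg and the fibrinogen genes were named after their values were seen. The 5 genes, the lists and the motifs were chosen with earlier results of these data known. Promoter sequences are RefSeq's. Some genes of this system are not reported here.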

Additional observations from a re-analysis of the deposited data

How the results depend on the processing

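The 15 ratios of the 5 genes (3 comparisons) were recomputed with DESeq2 size factors, total counts, a prior count of 2 and FPKM with 0.1 added. These alternatives could move the ratios little. The FPKM values carry the DESeq2 scaling again, and a prior count of 2 is small beside 408 or more reads. All 60 values kept their sign and stayed inside the counting interval of the reported value. The call changed in 1 of them: by total counts, Plat in Osm over TGFβ1 reached a log2 ratio of 1.006, past the threshold of 1, against 0.995 as reported. At a threshold of 1.5-fold, 5 of the 5 genes were called in Osm over TGFβ1, against 3. Of all 13712 genes compared, 2206 were called at that threshold, against 1027. Calls in the surrounding lists for Osm over vehicle, 1 as reported (Lrp2), were 0 by FPKM, 2 with all genes with any count and 3 at 1.5-fold. For Osm over TGFβ1 they were 10 at a filter of 10 CPM, against 16. Calls over all genes were 219 for Osm over vehicle, and 144 by FPKM, 468 with any count, 14 at 10 CPM and 516 at 1.5-fold. For TGFβ1 over vehicle they were 968, with 321 at 10 CPM and 2131 at 1.5-fold, and for Osm over TGFβ1 1027, with 332 and 2206. These changes follow from fewer or more genes compared or a lower threshold. For FPKM they follow from the added 0.1, which shrinks the ratios of low genes. The numbers of genes compared with any count and at 10 CPM are not given, so those calls cannot be read as shares. No paired analysis was possible because there is 1 library per group. For the same reason no library could be left out. Counting error was widest for Plaur, with 408 to 708 reads per library.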

Other observations

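Some genes of the surrounding lists passed the 2-fold rule at levels too low for the naming rule, and were named after their values were seen. With TGFβ1, the protease-activated receptor gene F2rl3 had 36 reads, against 4 with vehicle, 8.98-fold higher (3.22 to 34.8). Mmp10, a stromelysin gene, had 40 reads with TGFβ1 and 9 with vehicle, 4.44-fold higher (2.12 to 10.4), and Mmp13, a collagenase gene, 58 and 22 reads, 2.63-fold higher (1.59 to 4.52). With Osm these 3 genes had 4, 8 and 17 reads, differences from vehicle within counting error. F2rl3 and Mmp10 reached the filter of 1 CPM only in the TGFβ1 library.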
